A study of Mus musculus with 6 samples.

Results

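The Hox genes are the homeodomain transcription factors of the Hoxa, Hoxb, Hoxc and Hoxd clusters. They were followed here across cultured fibroblasts of the mouse tail. Members were all mouse genes whose symbol is Hoxa, Hoxb, Hoxc or Hoxd followed only by a number, found by matching the accession of each array probe to a RefSeq symbol. This gave 39 genes of the 22911 with a symbol on the array, measured by 46 of 56605 probes. Hoxa had 11 members (chromosome 6), Hoxb had 10 (chromosome 11), Hoxc had 9 (chromosome 15) and Hoxd had 9 (chromosome 2). Hoxa3, Hoxa9, Hoxa10, Hoxb3, Hoxb8, Hoxb9 and Hoxd8 had a pair of probes each.

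The series holds 6 Agilent 1-colour arrays of total RNA from tail tissue fibroblasts of the C57BL/6 strain, in 3 groups of 2. Every group, the control included, is labelled LH2F/F CAG-Cre, that is, floxed for lysyl hydroxylase 2 (encoded by Plod2) and carrying a Cre transgene under the broadly active CAG promoter. The LH2 cKO no.1 cells were in tamoxifen (+) medium, and the LH2 cKO no.2 cells in tamoxifen (-) medium, both after 24 h of tamoxifen treatment, and the control cells were in tamoxifen (-) medium with no tamoxifen treatment named. Nothing in the labels tells if a pair of arrays represents different mice or cultures, so p-values measure only the spread between these arrays, which may be technical. No group had tamoxifen without the floxed allele, so the loss of LH2 and the exposure to tamoxifen cannot be told apart against control.

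Hox genes lie in each cluster in the order in which they are switched on along the body axis, low paralog numbers towards the head and high ones towards the tail. Fibroblasts of adult skin and connective tissue are known to keep much of this code in culture, so that the set of Hox genes they express records where in the body they came from. Genes of paralog number 13 mark the end of the axis, with Hoxb13 limiting the length of the caudal spine and tail, Hoxa13 acting in digits and the urogenital tract, and Hoxc13 acting in hair follicles and nails. Hox proteins bind DNA together with TALE cofactors (Pbx, Meis and Pknox proteins), and Polycomb and trithorax complexes hold Hox clusters silent or active after the embryonic signals are gone.

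Plod2 was checked first, as the targeted gene. Its log2 level was -1.60 and -2.31 in no.1 cells, -2.05 and -2.73 in no.2 cells, against 0.30 and 0.05 in the control. A log2 level here is the log2 processed signal minus the 75th percentile of that array's non-control probes. Plod2 was lower in no.1 cells (log2 fold change -2.13 ± 0.34 SE, limma adjusted p = 0.00613) and in no.2 cells (-2.57 ± 0.34, adjusted p = 0.00768), and the sources used here do not say whether its probe lies in the floxed part. The 75th percentile of the signal was 95.9 and 85.1 in no.1 cells, 55.1 and 56.9 in no.2 cells, against 34.2 and 33.7 in the control, and no probe was saturated. The control arrays were closer to each other than other pairs. The robust SD of their log2 difference was 0.185, against 0.412 for the no.1 pair and 0.481 for the no.2 pair. For no.1 replicate 2 with no.2 replicates 1 and 2 it was 0.438 and 0.436, closer than the no.2 pair. For no.1 replicate 1 with the same arrays it was 0.660 and 0.698. Of 16 fibroblast markers, 13 to 14 were well above background in no.1 and in no.2, and 14 on both control arrays. Col1a1, Col1a2, Vim, Thy1 and S100a4 were above it on all 6 arrays, and Lum, a dermal fibroblast proteoglycan, on 0 of them. 

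Promoter windows of 4 members are shown because these genes stand for the contrasting patterns described below: Hoxa13 lost signal in both tamoxifen-treated groups, Hoxc4 and Hoxb8 gained it, and Hoxd13 was below background on every array. Each window is RefSeq sequence of GRCm38.p6, from 250 bases before the annotated start to 50 after it, 5′ to 3′ on the gene's strand. Capitals mark the core TTTAT, which Hox proteins of high paralog number recognise, or its reverse complement ATAAA. The windows are chr6:52260831-52261130 (minus strand) for Hoxa13, chr15:103034145-103034444 (plus) for Hoxc4, chr11:96281655-96281954 (plus) for Hoxb8 and chr2:74667975-74668274 (plus) for Hoxd13.
Hoxa13: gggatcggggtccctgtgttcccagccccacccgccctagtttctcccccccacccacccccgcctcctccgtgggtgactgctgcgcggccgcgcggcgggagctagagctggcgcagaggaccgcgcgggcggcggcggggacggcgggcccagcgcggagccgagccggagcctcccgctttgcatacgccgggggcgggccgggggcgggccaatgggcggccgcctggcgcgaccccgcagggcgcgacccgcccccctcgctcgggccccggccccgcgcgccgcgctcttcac
Hoxc4: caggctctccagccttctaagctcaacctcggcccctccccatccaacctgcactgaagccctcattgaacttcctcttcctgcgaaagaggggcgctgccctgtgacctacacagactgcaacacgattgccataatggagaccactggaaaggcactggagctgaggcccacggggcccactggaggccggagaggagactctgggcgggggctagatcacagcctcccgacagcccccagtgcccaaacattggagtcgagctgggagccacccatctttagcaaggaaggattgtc
Hoxb8: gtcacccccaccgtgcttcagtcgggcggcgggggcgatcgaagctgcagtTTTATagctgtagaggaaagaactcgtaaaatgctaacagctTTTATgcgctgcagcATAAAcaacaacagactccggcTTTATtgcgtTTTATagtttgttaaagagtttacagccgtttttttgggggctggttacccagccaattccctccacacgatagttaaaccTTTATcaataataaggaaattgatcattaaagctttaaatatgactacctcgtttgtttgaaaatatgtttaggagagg
Hoxd13: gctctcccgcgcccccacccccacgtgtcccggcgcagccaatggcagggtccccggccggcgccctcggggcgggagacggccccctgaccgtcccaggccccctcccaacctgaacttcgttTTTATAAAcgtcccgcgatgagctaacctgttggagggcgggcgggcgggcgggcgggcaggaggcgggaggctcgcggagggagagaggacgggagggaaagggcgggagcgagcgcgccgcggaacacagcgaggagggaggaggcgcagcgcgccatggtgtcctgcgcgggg
The Hoxb8 window held the core 6 times, 5 times as TTTAT and once as ATAAA. The Hoxd13 window held 2 matches that overlap, 1 on each strand, and the Hoxa13 and Hoxc4 windows held 0. Over all RefSeq windows of this length, 40.0% of 32851 held the core, and 9 of 24 Hox windows did (37.5%, from 22 of the genes), so these letters were not more common in Hox windows than in all windows. The Hoxa13 window had 45 CpG dinucleotides, more than 98.1% of all windows, and the Hoxd13 window had 37, more than 94.4%. The Hoxb8 and Hoxc4 windows had 13 and 9, against a median of 7 over all windows and 14.5 over the Hox windows. A match describes letters in the window and is not a binding site.

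The tail fibroblasts expressed most of the Hoxa, Hoxb and Hoxc clusters and showed no signal from Hoxd. Counting genes that the scanner software called well above background on both arrays of a group, 27 of 39 were detected in no.1 and 27 in no.2, against 23 in the control. For Hoxa this was 9, 9 and 6 of 11 genes in no.1, no.2 and control. For Hoxb it was 9 of 10 in each group, and for Hoxc it was 9 of 9 in no.1 and in no.2 and 8 of 9 in the control. Over all non-control probes, the share well above background was 53.4% and 53.5% in no.1 and 48.4% and 48.6% in no.2. On the control arrays it was 45.7% and 44.2%, so detection was lower in the control over all probes too. The Hoxd cluster gave 0 of 9 in each group, and no Hoxd probe was above background on any of the 6 arrays. Hoxd10, a gene of the lumbar spinal cord and hindlimb, had linear signals of 2.13 and 1.23 in no.1 cells, 1.24 and 3.15 in no.2 cells, against 3.74 and 2.78 in the control. The Hoxd13 probe had signals between 1.05 and 1.11 on all arrays. Below background, an array gives only an upper limit, so low expression of Hoxd cannot be told from none. Hoxa4 and Hoxb1 were likewise below background on all arrays. Hoxb1 acts in the hindbrain, and Hoxd13 in digits and genitalia. The map of detection by cluster and paralog number shows that detection ran through to paralog number 13 in Hoxb and Hoxc in every group.

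**Figure D1:**
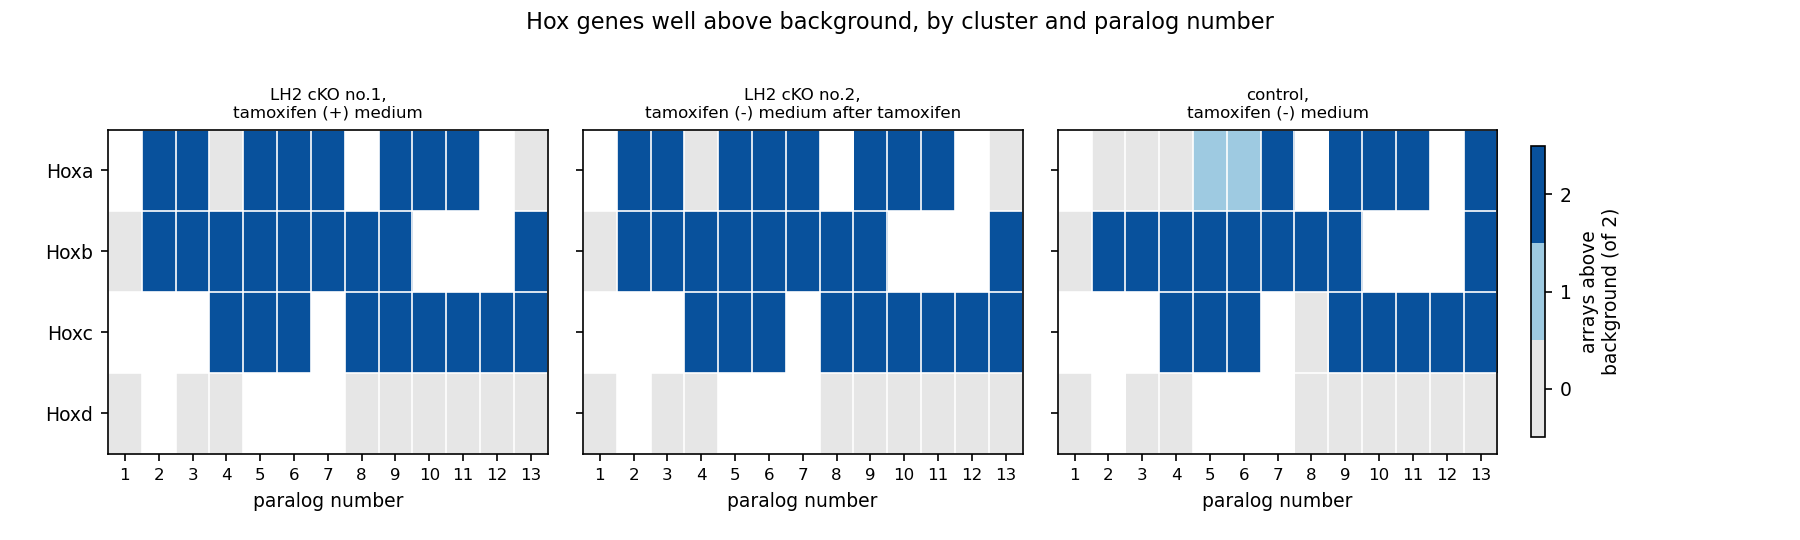
Each coloured square is 1 Hox gene reported here, with its cluster on the vertical axis and its paralog number on the horizontal axis, and colour gives the number of arrays (0, 1 or 2) of that group on which its probe was well above background; white squares show no gene. Hoxd is at 0 in all panels, Hoxa13 is at 0 in no.1 and no.2 and at 2 in the control, and Hoxa2, Hoxa3 and Hoxc8 are at 2 in no.1 and no.2 and at 0 in the control.

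Against control, Hox genes changed in both directions. In no.1 cells 14 Hox genes rose and 4 fell of 28 tested, and in no.2 cells 12 rose and 3 fell, at a limma adjusted p under 0.05 over all 23060 tested genes. Over all tested genes 47.8% were called in no.1 and 28.3% in no.2. The background was 21.4% of all tested genes higher and 26.4% lower in no.1, and 12.1% higher and 16.2% lower in no.2. The median log2 fold change of the 28 was 0.66 in no.1 and 0.95 in no.2, against -0.12 and -0.10 over all tested genes. In the Hoxc cluster 8 of 9 genes rose in each comparison, and Hoxa13 and Hoxb13 fell in both. Both comparisons use the same control arrays, so they are not independent of each other. In cultures measured as bulk RNA, fewer cells expressing a gene and less RNA per cell cannot be told apart. The control arrays lay in another row of the slide than the others, so row and treatment cannot be told apart.

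Some members were tested only through the group in which they were above background, a filter that favours differences. Among the 22 Hox genes above background on all 6 arrays, 11 rose and 3 fell in no.1, and 11 rose and 2 fell in no.2, in a fit of those genes alone. The share of all 17788 such genes was 22.7% higher and 32.0% lower in no.1, and 13.4% higher and 20.5% lower in no.2. Taking the control arrays as 1 averaged sample left the log2 fold changes unchanged. In both comparisons fewer Hox genes, and also fewer of all genes, were then called.

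The genes of paralog number 13 moved in opposite directions. Hoxb13, the member with the strongest posterior restriction in the mouse axis, had log2 levels of 4.23 and 4.44 in no.1 cells, 4.74 and 4.84 in no.2 cells, against 7.05 and 7.19 in the control. All 4 arrays of treated cells were lower than both control arrays, and the groups did not overlap. Hoxb13 was 6.87-fold lower in no.1 cells (log2 fold change -2.78 ± 0.20 SE, limma adjusted p = 0.000981) and 5.01-fold lower in no.2 cells (-2.33 ± 0.20, adjusted p = 0.00249). Its signal stayed far above background, at 1802 and 1853 in no.1 cells, 1475 and 1633 in no.2 cells, against 4528 and 4907 in the control. The call held in both comparisons whichever array was left out, with adjusted p up to 0.0112 in no.1 and 0.0216 in no.2.

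Hoxa13 was above background only on the control arrays. Its log2 levels were -5.81 and -4.39 in no.1 cells, -3.70 and -4.72 in no.2 cells, against -0.71 and -0.50 in the control. Because a probe below background has only an upper limit, the fall of Hoxa13 is given as an approximate bound. At the scaling of these log2 levels, Hoxa13 was at least about 12.3-fold lower in no.1 cells (limma adjusted p = 0.0033). In no.2 cells it was at least about 7.79-fold lower (limma adjusted p = 0.00976). Such a bound sets the mean of the detected group against a floor on each array of the other group. The floor is the lowest signal among probes well above background, or the probe's own signal where higher. It is not a strict limit, because the background call differs between probes. On control replicate 1, Gata6 at a log2 level of -2.60 was called well above background and Lmx1b at -2.59 was not. The linear signals were small throughout, at 1.71 and 4.07 in no.1 cells, 4.25 and 2.16 in no.2 cells, against 20.9 and 23.7 in the control. With a normexp background correction, which compresses dim signals, the fitted log2 difference, which is no exact fold change either, was -0.73 in no.1 and -0.70 in no.2. Without no.2 replicate 2, the adjusted p of Hoxa13 in no.2 was 0.0522. Relative to the spike-in controls, described below, the fitted log2 difference of Hoxa13 was -2.55 in no.1 and -2.31 in no.2. These falls were smaller than the bounds, which hold only for the scaling used above.

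Hoxc13, a regulator of hair keratin genes, went the other way. It had log2 levels of 2.25 and 1.94 in no.1 cells, 1.99 and 2.39 in no.2 cells, against 0.65 and 0.70 in the control. Every array of the treated groups was above both control arrays. Hoxc13 was 2.68-fold higher in no.1 cells (log2 fold change 1.42 ± 0.23 SE, limma adjusted p = 0.00626) and 2.86-fold higher in no.2 cells (1.51 ± 0.23, adjusted p = 0.0102). In no.2 the call was lost without either control array, with adjusted p up to 0.0584. Hoxd13 was below background on all arrays, as described above.

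Differences between paralogs within 1 array do not depend on the scaling between arrays. The log2 difference Hoxc13 minus Hoxb13 was -1.98 and -2.50 in no.1 cells, -2.76 and -2.45 in no.2 cells, against -6.40 and -6.49 in the control. It shifted by 4.20 log2 units in no.1 and by 3.84 in no.2 towards Hoxc13, which shows unequal change of the pair. Since each probe has its own efficiency, the difference itself does not say which transcript was more abundant. For paralog number 11, Hoxc11 minus Hoxa11 shifted by 2.18 in no.1 and 2.90 in no.2. For paralog number 4, Hoxc4 minus Hoxb4 shifted by 3.07 in no.1 and 3.22 in no.2. Hoxc10 minus Hoxa10 was -2.26 and -2.03 in no.1 cells, -1.93 and -2.12 in no.2 cells, against -1.93 and -2.18 in the control, so this pair overlapped between groups.

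**Figure D2:**
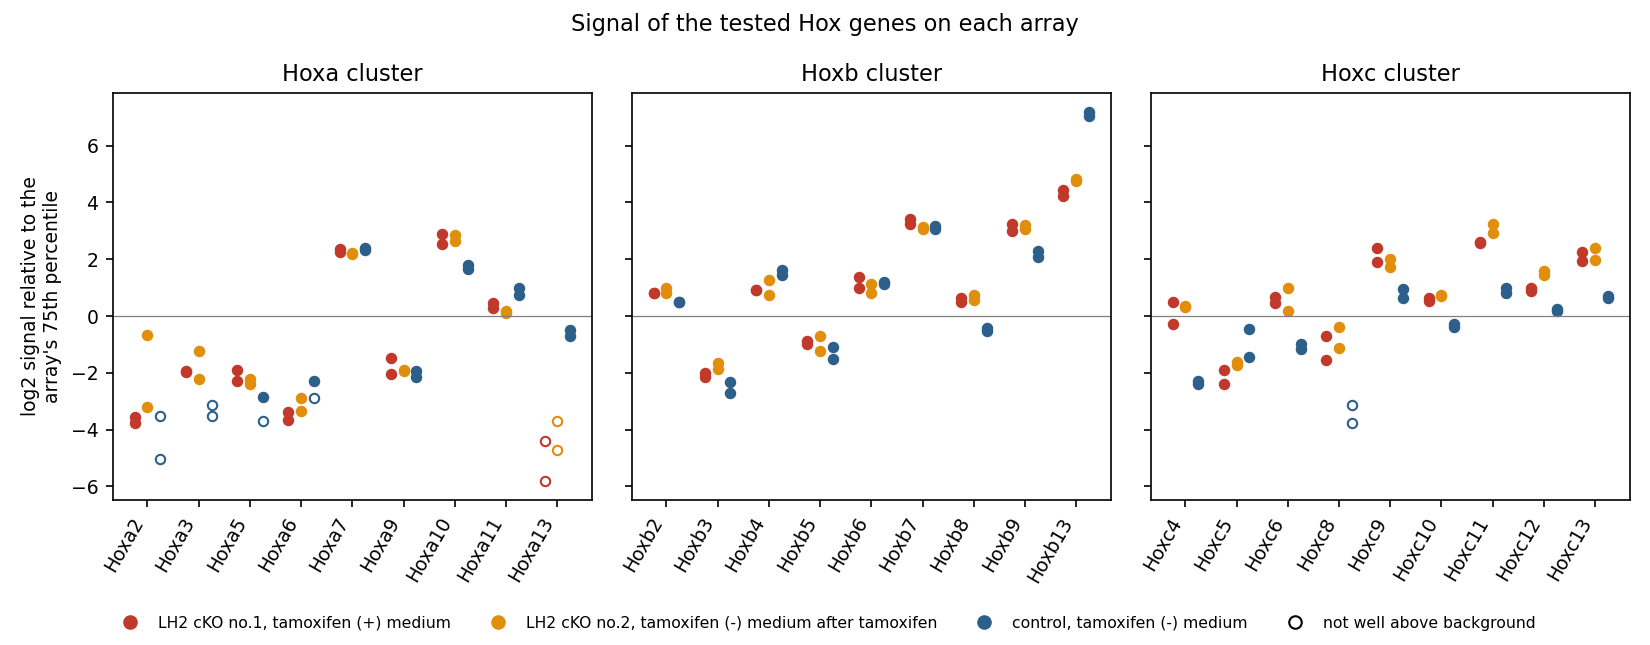
Each point is 1 array, with the log2 signal relative to that array's 75th percentile on the vertical axis and the tested Hox genes reported here along the horizontal axis, in 1 panel per cluster; open points are not well above background. Hoxb13 sits between 4.23 and 4.84 on the arrays of no.1 and no.2 and at 7.05 or higher on the control arrays, and most Hoxc genes sit higher in no.1 and no.2 than in the control.

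In the Hoxc cluster, 8 of 9 genes rose in no.1 and the remaining gene, Hoxc5, fell. In no.2 Hoxc4, Hoxc6 and Hoxc8 to Hoxc13 rose, and Hoxc5 missed the threshold. The median log2 fold change over the cluster was 1.42 in no.1 and 1.51 in no.2. Among all tested genes 21.4% rose and 26.4% fell in no.1, and 12.1% rose and 16.2% fell in no.2. Hoxc4, a gene of the neck and upper trunk, had log2 levels of -0.28 and 0.50 in no.1 cells, 0.34 and 0.37 in no.2 cells, against -2.27 and -2.40 in the control. The groups lay far apart, with Hoxc4 5.45-fold higher in no.1 cells (log2 fold change 2.45 ± 0.29 SE, limma adjusted p = 0.00321) and 6.45-fold higher in no.2 cells (2.69 ± 0.29, adjusted p = 0.00435). Its control signals were dim, at 7.08 and 6.37 on the linear scale. With normexp, which compresses dim signals, its log2 fold change was only 0.86 in no.1 and 0.96 in no.2.

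Hoxc8, a gene of the thoracic segments, was above background on all arrays of no.1 and no.2 and on 0 control arrays. Its log2 levels were -1.56 and -0.72 in no.1 cells, -1.12 and -0.40 in no.2 cells, against -3.13 and -3.75 in the control. It was at least about 3.39-fold higher in no.1 cells (limma adjusted p = 0.00768). In no.2 cells it was at least about 4.41-fold higher (limma adjusted p = 0.00996), and that call was lost without no.2 replicate 2. With normexp the fitted log2 difference of Hoxc8 was 0.52 in no.1 and 0.65 in no.2. Hoxc6, which also patterns the thoracic region, was at 0.67 and 0.45 in no.1 cells, 0.16 and 1.00 in no.2 cells, against -0.97 and -1.15 in the control. It rose by 1.62 ± 0.31 in no.1 cells (adjusted p = 0.00956) and 1.64 ± 0.31 in no.2 cells (adjusted p = 0.017). Hoxc6 lost its call without control replicate 2 or no.1 replicate 1 in no.1 cells (adjusted p up to 0.0584) and without either control array in no.2 cells (up to 0.0821).

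The posterior Hoxc genes rose as well. Hoxc11, a gene of the lower trunk and hindlimb, was at 2.56 and 2.61 in no.1 cells, 3.25 and 2.91 in no.2 cells, against 0.98 and 0.82 in the control. This was an increase of 1.69 ± 0.21 in no.1 cells (limma adjusted p = 0.00351) and 2.18 ± 0.21 in no.2 cells (adjusted p = 0.00336), and its call held whichever array was left out. Hoxc12, the next gene in the cluster, was at 0.87 and 0.99 in no.1 cells, 1.58 and 1.44 in no.2 cells, against 0.17 and 0.26 in the control. Its log2 fold change was 0.71 ± 0.19 in no.1 cells (adjusted p = 0.0247) and 1.29 ± 0.19 in no.2 cells (adjusted p = 0.00931). The no.1 arrays lay between the other groups for Hoxc11 and Hoxc12, but neither gene was called between no.1 and no.2.

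Hoxc9 and Hoxc10, which act at the boundary of the trunk and the lumbar region, also rose. Hoxc9 was at 2.40 and 1.90 in no.1 cells, 1.99 and 1.74 in no.2 cells, against 0.64 and 0.95 in the control, a log2 fold change of 1.35 ± 0.26 in no.1 cells (limma adjusted p = 0.00946) and 1.07 ± 0.26 in no.2 cells (adjusted p = 0.0307). Hoxc10 was at 0.63 and 0.52 in no.1 cells, 0.70 and 0.75 in no.2 cells, against -0.27 and -0.40 in the control. Its log2 fold change was 0.91 ± 0.19 in no.1 cells (adjusted p = 0.0117) and 1.06 ± 0.19 in no.2 cells (adjusted p = 0.0141). Calls for Hoxc9, Hoxc10 and Hoxc12 were lost without 1 array or another: adjusted p reached 0.0594, 0.0956 and 0.158 in no.1 and 0.16, 0.104 and 0.0643 in no.2. Hoxc10 lost its call without either control array in both comparisons, and so did Hoxc12, which in no.1 also lost it without either no.1 array. Hoxc9 lost its call in no.1 without control replicate 1, and in no.2 without either control array or either no.2 array.

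Hoxc5 was the exception in its cluster. It was at -2.40 and -1.89 in no.1 cells, -1.73 and -1.61 in no.2 cells, against -0.47 and -1.45 in the control. The control arrays were themselves nearly 1 log2 unit apart. The log2 fold change was -1.19 ± 0.37 in no.1 cells (limma adjusted p = 0.0392) and -0.71 in no.2 cells (adjusted p = 0.182). The no.1 call was lost without control replicate 1, or without any single array of no.1 or no.2 (adjusted p up to 0.185), and it changed sign to 0.75 when arrays were scaled to spike-in controls.

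**Figure D3:**
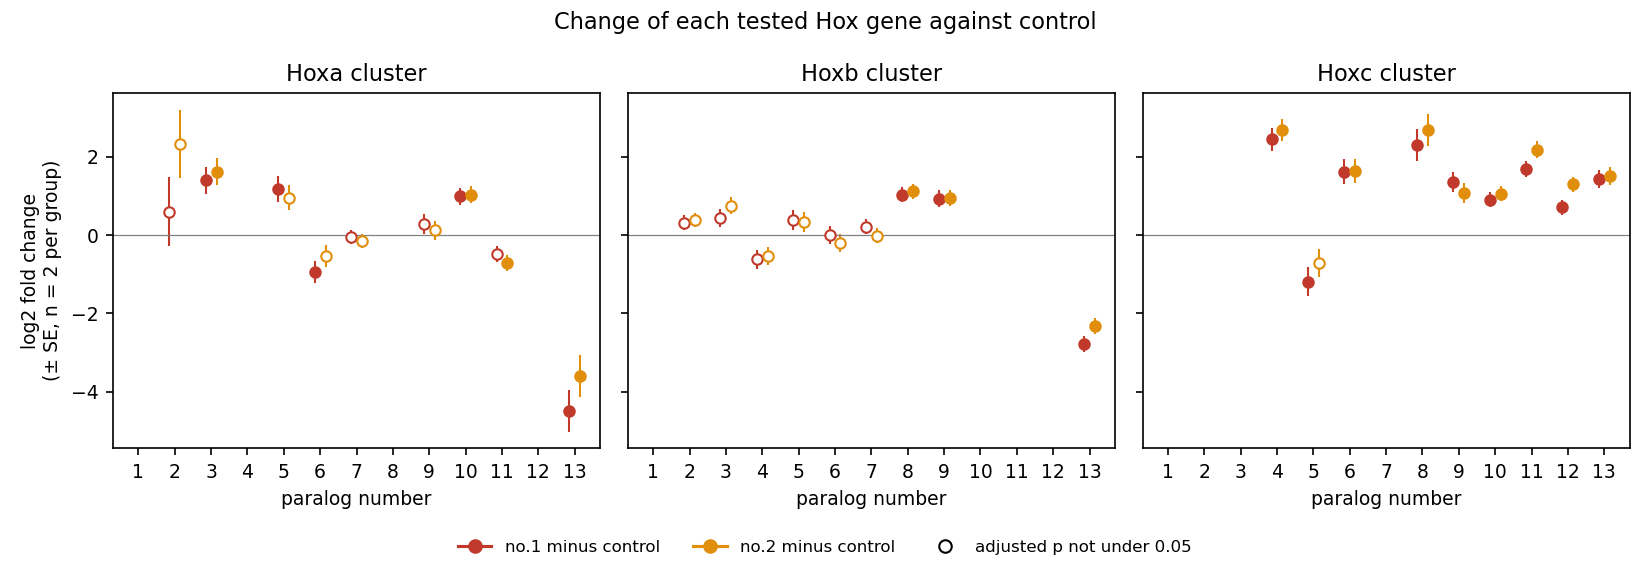
The log2 fold change against control of the tested Hox genes reported here (vertical axis, with the SE, n = 2 arrays per group) is set against paralog number (horizontal axis), in 1 panel per cluster; filled points passed a limma adjusted p of 0.05. All Hoxc points except Hoxc5 lie above 0, and Hoxb13 lies at -2.78 in no.1. The Hoxa13 points rest on signals below background in no.1 and no.2, so their size is not an exact fold change.

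In the Hoxb cluster the genes that passed the test were Hoxb8, Hoxb9 and Hoxb13. In each comparison 2 of the 9 tested genes rose and 1, Hoxb13, fell, with a median log2 fold change of 0.31 in no.1 and 0.34 in no.2. Over all tested genes 21.4% rose and 26.4% fell in no.1, and 12.1% rose and 16.2% fell in no.2. The share of Hoxb genes that rose in no.1 was thus close to that of all genes. Hoxb8, a gene of the trunk, was at 0.62 and 0.49 in no.1 cells, 0.74 and 0.55 in no.2 cells, against -0.51 and -0.42 in the control. It rose by 1.03 ± 0.19 in no.1 cells (limma adjusted p = 0.00901) and 1.12 ± 0.19 in no.2 cells (adjusted p = 0.0136), and its other probe rose by 1.15 and 1.26. Hoxb9, which with its paralogs patterns the rib cage, was at 3.25 and 3.01 in no.1 cells, 3.07 and 3.20 in no.2 cells, against 2.09 and 2.31 in the control. It rose by 0.93 ± 0.21 in no.1 cells (adjusted p = 0.0143) and 0.94 ± 0.21 in no.2 cells (adjusted p = 0.0239), and its other probe by 1.14 and 0.89. Both genes lost their call without either control array, with adjusted p up to 0.0688 and 0.106 in no.1 cells and 0.0886 and 0.152 in no.2 cells, and Hoxb9 also without no.1 replicate 1 in no.1 or no.2 replicate 2 in no.2.

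Hoxb2 to Hoxb7 did not pass the test in either comparison. Their log2 fold changes ran between -0.62 for Hoxb4 and 0.43 for Hoxb3 in no.1, and between -0.54 for Hoxb4 and 0.75 for Hoxb3 in no.2. Hoxb3, a hindbrain and neck gene, came nearest in no.2 cells (limma adjusted p = 0.0519), but its probes disagreed, with -0.88 in no.1 and -0.58 in no.2 for the other probe. Hoxb7, a gene of the thoracic trunk, was at 3.41 and 3.24 in no.1 cells, 3.07 and 3.12 in no.2 cells, against 3.07 and 3.16 in the control. Hoxb7 thus overlapped between no.2 and control. Hoxb6 was at 1.39 and 0.97 in no.1 cells, 0.82 and 1.14 in no.2 cells, against 1.21 and 1.14 in the control. The Hoxb6 values of no.1 lay on either side of the control.

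The Hoxa cluster was mixed. In no.1, 4 of 10 tested genes rose and 2 fell, and in no.2, 2 rose and 2 fell, with medians of 0.44 and 0.54. Beside this, 21.4% of all tested genes rose and 26.4% fell in no.1, and 12.1% rose and 16.2% fell in no.2. Hoxa10, a gene of the lumbar region and uterus, was at 2.89 and 2.55 in no.1 cells, 2.63 and 2.87 in no.2 cells, against 1.66 and 1.78 in the control. It rose by 1.00 ± 0.22 in no.1 cells (limma adjusted p = 0.014) and 1.03 ± 0.22 in no.2 cells (adjusted p = 0.0221), and its other probe gave 0.53 and 0.70, neither past the threshold. Its call was lost without either control array, without no.1 replicate 1 in no.1 and without no.2 replicate 2 in no.2, with adjusted p up to 0.0887 and 0.124.

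Hoxa11, a gene of the forearm and uterus, was at 0.47 and 0.28 in no.1 cells, 0.18 and 0.12 in no.2 cells, against 0.75 and 0.98 in the control. All treated arrays were below both control arrays. Hoxa11 fell by 0.72 ± 0.20 in no.2 cells (limma adjusted p = 0.043) and missed the threshold in no.1 cells (-0.49, adjusted p = 0.0851). The no.2 call was lost without any 1 of the 6 arrays (adjusted p up to 0.258) and changed sign to 0.57 with spike-in scaling.

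Hoxa3, a gene of the pharyngeal arches, was at -1.95 and -1.93 in no.1 cells and -2.21 and -1.22 in no.2 cells, against -3.53 and -3.14 in the control, where both arrays were below background. It was at least about 1.95-fold higher in no.1 cells (limma adjusted p = 0.0217). In no.2 cells it was at least about 2.28-fold higher (limma adjusted p = 0.0235). Its other probe was below background on all arrays. Both calls were lost without either control array, and without either no.1 array in no.1 or no.2 replicate 2 in no.2 cells (adjusted p up to 0.0997 and 0.103). With normexp the fitted log2 difference of Hoxa3 was 0.25 in no.1 and 0.31 in no.2, without a call in either. Hoxa2, a gene of the hindbrain and facial skeleton, was above background on all arrays of no.1 and no.2, at -3.55 and -3.77 in no.1 cells and -3.20 and -0.66 in no.2 cells, and on 0 control arrays. The spread of the no.2 arrays was wide, and Hoxa2 did not pass the test (adjusted p = 0.587 in no.1 and 0.0895 in no.2).

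Hoxa5 and Hoxa6 were dim, and each was above background on only 1 of 2 control arrays. Hoxa5, a regulator of lung and cervical development, was at -1.90 and -2.28 in no.1 cells, -2.23 and -2.38 in no.2 cells, against -3.69 and -2.84 in the control, and was called higher in no.1 cells (limma adjusted p = 0.0289). Hoxa6 was at -3.39 and -3.65 in no.1 cells, -2.90 and -3.35 in no.2 cells, against -2.30 and -2.87 in the control, and was called lower in no.1 cells (adjusted p = 0.0379). Neither was called in no.2 cells (adjusted p = 0.0724 and 0.19). In no.1 both calls were lost without control replicate 1 or either no.1 array, Hoxa5 also without either no.2 array and Hoxa6 also without control replicate 2, with adjusted p up to 0.147 and 0.209. With spike-in scaling Hoxa6 stood at 1.00 in no.1.

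Hoxa7, which acts in the trunk, was at 2.35 and 2.26 in no.1 cells, 2.20 and 2.20 in no.2 cells, against 2.39 and 2.31 in the control. Hoxa9, which acts with its paralogs in the lumbar region, was at -1.47 and -2.05 in no.1 cells, -1.90 and -1.94 in no.2 cells, against -2.13 and -1.95 in the control. Neither passed the test. The other Hoxa9 probe went down instead, by 0.58 in no.1 cells (limma adjusted p = 0.139) and by 0.99 in no.2 cells (adjusted p = 0.0479), so the direction for Hoxa9 depends on the probe.

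By paralog number, changes did not run in 1 direction along the axis. For numbers 1 to 4, 3 of 7 tested genes rose and 0 fell in no.1, and 2 rose and 0 fell in no.2. For numbers 5 to 8, 4 of 10 rose and 2 fell in no.1, and 3 rose and 0 fell in no.2. For numbers 9 and 10, 4 of 5 rose and 0 fell in both. For numbers 11 to 13, 3 of 6 rose and 2 fell in no.1, and 3 rose and 3 fell in no.2. These small counts stand beside 21.4% of all tested genes higher and 26.4% lower in no.1, and 12.1% and 16.2% in no.2. From the lowest band to the highest, no.1 cells had median log2 fold changes of 0.60, 0.30, 0.93 and 0.11, and no.2 cells had 1.03, 0.16, 1.03 and 0.29. The posterior band thus held both Hoxc genes that rose and Hoxa13 and Hoxb13, which fell.

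The direct comparison named by the study, cells kept in tamoxifen against cells moved to tamoxifen-free medium, called 0 Hox genes and 0 of all 23060 genes (0%). At an unadjusted limma p under 0.05 there were 3825 genes, and the smallest adjusted p was 0.206. The median of the 28 Hox genes was -0.09 in no.1 minus no.2, against -0.01 over all genes. The members of lowest p were Hoxc12 (log2 fold change -0.58 ± 0.19 SE, adjusted p = 0.282), Hoxc11 (-0.50 ± 0.21, adjusted p = 0.307) and Hoxb13 (-0.46 ± 0.20, adjusted p = 0.312). With spike-in scaling the values of these 3 were 0.07, 0.15 and 0.19. A miss of the threshold with 2 arrays a group does not show that the cultures had equal Hox levels.

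How arrays are scaled moves the direction of many members. Relative to the spike-in controls, RNAs meant to be added to each sample in equal amounts, the median of all genes was 1.82 in no.1 and 1.19 in no.2, and 26 of the 28 Hox genes were above control in each. Hoxb13 stayed below control (-0.84 in no.1 and -1.04 in no.2) and passed the test in both comparisons. The other exception was Hoxa13, with a fitted log2 difference of -2.55 in no.1 and -2.31 in no.2. Hoxa13 was below background in no.1 and no.2, so these values are no exact fold changes. The Hox median minus the median of all genes was 0.77 in no.1 and 1.05 in no.2, a difference that a shift of whole arrays cannot alter. It did depend on the handling of dim signals. With normexp it was 0.19 in no.1 and 0.22 in no.2, and with no filter on dim probes 1.05 and 0.54. With spike-in scaling 25 Hox genes were called higher and 2 lower in no.1, among 18972 genes higher and 422 lower. In no.2 that scaling called 22 Hox genes higher and 2 lower, among 15083 genes higher and 534 lower. Scaling to the median probe gave 17 higher and 2 lower in no.1 and 15 higher and 2 lower in no.2, among 7564 genes higher and 3296 lower, and 4840 higher and 2176 lower.

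**Figure D4:**
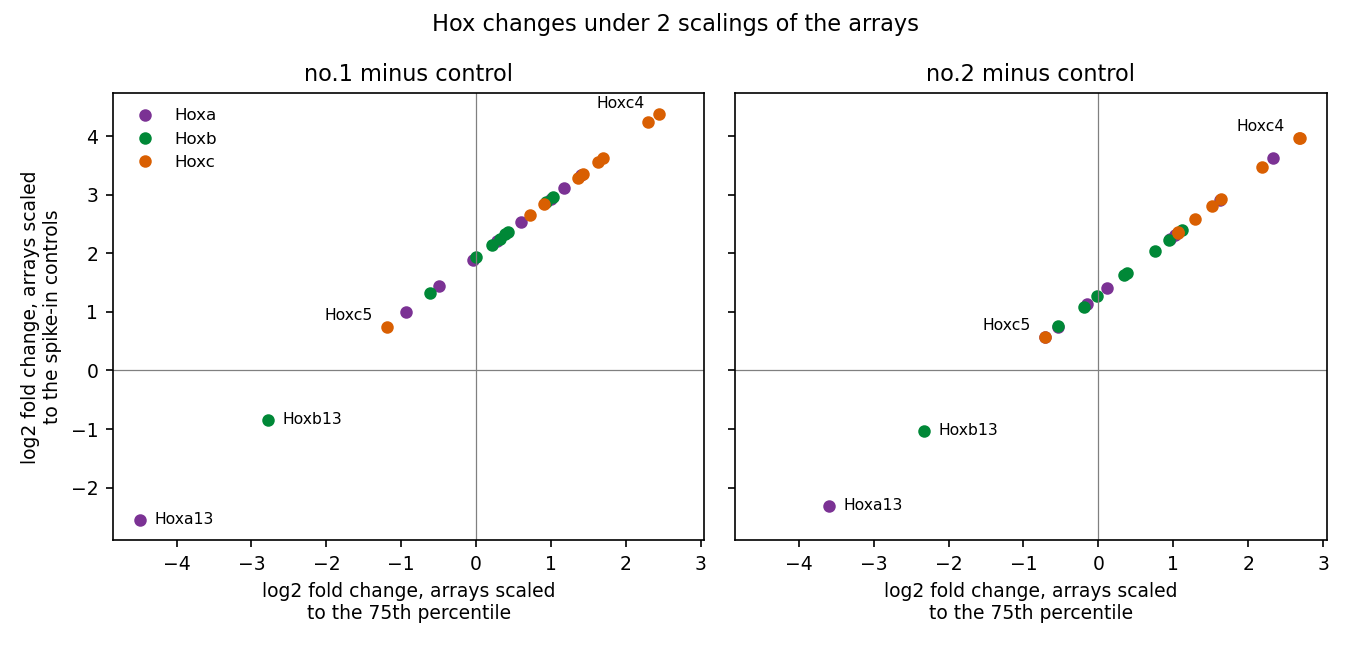
Each point is 1 tested Hox gene reported here, with its log2 fold change against control when arrays are scaled to the 75th percentile (horizontal axis) and to the spike-in controls (vertical axis), for no.1 and no.2. Hoxa13 and Hoxb13 stay below 0 on both axes, and Hoxc5 moves from -1.19 to 0.75 in no.1.

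Hox cofactors of the TALE class changed in both directions. Of 9 genes tested, 4 rose and 3 fell in no.1, and 4 rose and 2 fell in no.2, with medians of 0.35 and 0.54. Over all tested genes the shares were 21.4% higher and 26.4% lower in no.1 and 12.1% higher and 16.2% lower in no.2. Pknox2, also known as Prep2, was at 0.40 and 0.70 in no.1 cells, 0.83 and 0.85 in no.2 cells, against -0.89 and -1.21 in the control. It rose by 1.60 ± 0.22 in no.1 cells (limma adjusted p = 0.00426) and 1.89 ± 0.22 in no.2 cells (adjusted p = 0.00548). Pbx3, a partner that helps Hox proteins choose their sites, rose by 1.83 in no.1, and Meis1, a proximal limb and haematopoietic cofactor, rose by 1.69 in no.2 cells (adjusted p = 0.0126). Meis3 fell by 1.53 in no.1 but stood at 0.41 with spike-in scaling.

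Polycomb genes encode complexes that keep Hox genes repressed. In no.1, 12 of 23 rose and 3 fell (median 0.75), and in no.2, 7 rose and 0 fell (median 0.51), beside 21.4% and 26.4% of all genes in no.1 and 12.1% and 16.2% in no.2. Ezh2, the methyltransferase of Polycomb repressive complex 2, was at 2.86 and 2.26 in no.1 cells, 1.62 and 1.62 in no.2 cells, against -0.94 and -0.43 in the control. It rose by 3.24 ± 0.29 in no.1 cells (limma adjusted p = 0.00175) and 2.30 ± 0.29 in no.2 cells (adjusted p = 0.00644). Phf19, an accessory subunit of the same complex, rose by 1.52 and 1.48, Bmi1, a subunit of complex 1, by 1.81 in no.1, and Phc1, another complex 1 subunit, by 1.45 in no.2. Of trithorax genes and H3K27 demethylases, 4 of 11 rose in no.1 and 2 in no.2, with 0 lower in both and medians of 0.52 and 0.34, beside 21.4% and 12.1% of all genes higher. Psip1, which tethers the MLL complex to chromatin, rose by 2.51 in no.1 and 1.81 in no.2. Ctcf, which insulates domains of the Hox clusters, rose by 1.01 and 0.72.

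Of 18 signals that set posterior Hox expression in the embryo, 8 were tested. In no.1, 1 rose and 3 fell, and in no.2, 1 rose and 2 fell, with medians of -0.82 and -0.01. Over all genes 47.8% were called in no.1 and 28.3% in no.2. Of the tail bud regulators, Cdx1, Cdx4, T and Wnt3a were below background on all 6 arrays. Cdx2 was above it only on control replicate 2 (linear signal 7.93), and Tbx6 only on no.2 replicate 2 (6.36). In no.1 Fgf8, Gdf11 and Rarg, genes of the growth zone and of retinoid signalling, had log2 fold changes of -1.56, -1.17 and -1.06 and passed the test, but stood at 0.38, 0.77 and 0.88 with spike-in scaling. Cyp26b1, which degrades retinoic acid, was at 0.57 and -0.89 in no.1 cells, -0.94 and -2.84 in no.2 cells, against 1.56 and 1.88 in the control. It fell by 3.61 ± 0.72 on the log2 scale in no.2 cells (limma adjusted p = 0.0187), and in no.1 it missed the threshold (-1.88, adjusted p = 0.0719). Acvr2b, a receptor for Gdf11, rose by 1.06 in no.2.

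Noncoding RNAs from within the clusters were measured for 8 of 19 listed genes, and 5 were tested. In each comparison 0 rose and 2 fell, with medians of -0.57 in no.1 and -0.83 in no.2, beside 26.4% and 16.2% of all genes lower. Hoxb5os, an antisense RNA of the Hoxb cluster, was at -0.72 and -0.66 in no.1 cells, -0.05 and -1.02 in no.2 cells, against 2.83 and 2.93 in the control. Hoxb5os fell by 3.58 ± 0.33 in no.1 cells (limma adjusted p = 0.00193) and 3.42 ± 0.33 in no.2 cells (adjusted p = 0.00352), while the neighbouring coding gene Hoxb5 stood at 0.39 and 0.34 without a call. Hoxa11os, antisense to Hoxa11, was at 0.99 and 0.70 in no.1 cells, 0.98 and 0.92 in no.2 cells, against 2.46 and 2.67 in the control. Hoxa11os fell by 1.72 in no.1 and 1.61 in no.2, and with spike-in scaling stood at 0.22 and -0.32. Haglr, which lies in the Hoxd cluster and was picked after its values were seen, was above background on all 6 arrays, at -1.88 and -2.14 in no.1 cells, -1.60 and -1.94 in no.2 cells, against -2.08 and -1.88 in the control. Haglr thus gave a signal where the coding Hoxd genes gave none above background, and its groups overlapped.

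Genes that flank the clusters were followed as well. Of 9 tested, 2 rose and 2 fell in no.1, and 1 rose and 0 fell in no.2, with medians of 0.38 and 0.06. These totals were no higher than the shares of all genes called, 47.8% in no.1 and 28.3% in no.2. Cbx5, which encodes heterochromatin protein HP1 alpha and lies beside Hoxc, rose by 1.58 ± 0.25 in no.1 cells (limma adjusted p = 0.0057) and 0.96 ± 0.25 in no.2 cells (adjusted p = 0.0358). Snx10, near Hoxa, rose by 0.87 in no.1. Calcoco1, also near Hoxc, stood at -1.62 in no.1 cells (adjusted p = 0.0413) but at 0.32 with spike-in scaling.

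Other transcription factors of body position also changed in both directions. Of 17 tested limb, body wall and tail factors, 7 rose and 6 fell in no.1, and 3 rose and 5 fell in no.2, with medians of 0.24 and 0.31, where 21.4% of all genes rose and 26.4% fell in no.1, and 12.1% rose and 16.2% fell in no.2. Tbx5, the forelimb factor, was above background on 0 arrays of no.1 and no.2 and on both control arrays. Its linear signals were 8.04 and 8.43 in the control and 0.93 to 0.98 in no.1 and no.2. Tbx5 entered the test only through the control arrays. Its limma adjusted p (0.000357 in no.1 and 0.000696 in no.2) rests on signals below background and does not measure the size of a fall. Tbx4, the hindlimb factor, was at -3.52 and -3.46 in no.1 cells, -3.59 and -2.61 in no.2 cells, against 0.47 and 0.32 in the control. It fell by 3.89 ± 0.34 in no.1 cells (adjusted p = 0.0017), and in no.2 only 1 of 2 arrays was above background (adjusted p = 0.0034). Gata6, a mesoderm factor, was at 0.34 and -0.17 in no.1 cells, -0.14 and 0.06 in no.2 cells, against -2.60 and -2.67 in the control, where 1 of 2 arrays was above background.

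Homeobox genes outside the clusters also split. Of 30 tested, 12 rose and 8 fell in no.1, and 10 rose and 5 fell in no.2, with medians of 0.39 and 0.36. The shares that fell were close to those of all genes, 26.4% in no.1 and 16.2% in no.2, and 21.4% and 12.1% of all genes rose. Meox1, a somite and sclerotome factor, was at 1.41 and 1.70 in no.1 cells, 1.85 and 1.86 in no.2 cells, against -1.91 and -2.23 in the control. It rose by 3.62 ± 0.22 in no.1 cells (limma adjusted p = 0.000642) and 3.92 ± 0.22 in no.2 cells (adjusted p = 0.000946). In the direct comparison of no.1 with no.2, 0 genes of any of these lists were called.

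Marker genes of fibroblasts and of other cells also differed between the groups. The summed linear level of 16 fibroblast markers, relative to the 75th percentile, was 2255 to 2307 in no.1 and 2464 to 2856 in no.2, against 5100 to 5403 in the control. Most of that difference came from S100a4 alone, the marker of highest signal. Without it, the sums were 1168 to 1193 in no.1 and 1409 to 1517 in no.2, against 1543 to 1605 in the control. Such sums add signals of probes that differ in efficiency and are led by the brightest one. Of 14 tested fibroblast markers, 3 rose and 7 fell in no.1, and 2 rose and 6 fell in no.2, with medians of -1.41 and -0.46, beside 47.8% and 28.3% of all genes called. The summed level of 6 melanocyte markers was 1.09 to 1.33 in no.1 and 1.26 to 1.56 in no.2, against 2.78 to 2.86 in the control, with 4 of 4 tested lower in no.1 and 1 in no.2. For 7 Schwann cell and neural markers it was 7.19 to 9.83 in no.1 and 7.89 to 8.57 in no.2, against 13.3 to 13.6 in the control, and Sox10 was above background on 0 arrays. Of 3 tested neural markers 2 fell in each comparison. The 10 keratinocyte markers summed to 9.83 to 10.4 in no.1 and 10.1 to 11.7 in no.2, against 12.4 to 12.9 in the control, and 1 of 3 tested fell in each comparison. The 8 macrophage and leukocyte markers summed to 27.5 to 31.5 in no.1 and 28.5 to 35.3 in no.2, against 44.8 to 47.8 in the control, and 1 of 3 tested fell in each. The 6 adipocyte markers summed to 3.53 to 4.20 in no.1 and 3.26 to 3.29 in no.2, against 5.64 to 5.71 in the control, with 1 of 4 tested higher and 3 lower in no.1 and 2 lower in no.2. The keratinocyte sum was led by Trp63, at 8.22 to 8.48 in no.1 and 8.82 to 10.5 in no.2, against 9.65 to 10.1 in the control, so this gene overlapped between no.2 and control. The leukocyte sum was led by Itgam, at 25.4 to 28.8 in no.1 and 26.7 to 30.9 in no.2, against 34.6 to 36.9 in the control. Without Itgam that sum was 2.17 to 2.71 in no.1 and 1.85 to 4.36 in no.2, against 10.2 to 10.9 in the control. Without Trp63 the keratinocyte sum was 1.61 to 1.90 in no.1 and 1.23 to 1.30 in no.2, against 2.76 to 2.85 in the control. Without Ncam1, the brightest neural marker, the neural sum was 0.51 to 0.57 in no.1 and 0.78 to 0.87 in no.2, against 3.15 to 3.19 in the control. Without Fabp4, the brightest adipocyte marker, that sum was 1.75 to 2.85 in no.1 and 1.30 to 1.49 in no.2, against 1.72 to 1.91 in the control, so no.1 and control overlapped. The sums of 8 markers each for endothelium, skeletal muscle, and cartilage and bone overlapped between the control and at least 1 of the other groups. Of their members, 0 of 2 endothelial genes were called in either comparison, 1 of 2 muscle genes fell in no.1, and of 4 cartilage and bone genes 1 fell in no.1 while 1 rose and 1 fell in no.2. Keratin genes Krt5 and Krt14, the leukocyte gene Ptprc and the muscle gene Myod1 were also above background on 0 arrays. Other members of the same lists were detected, such as Krt10 on all 6 arrays. Per array, 2 to 3 of 10 keratinocyte, 3 to 4 of 8 leukocyte, 1 to 2 of 8 muscle and 2 to 3 of 7 neural markers were above background. The muscle sum was led by Acta1, at 12.4 to 21.3 over the 6 arrays. The part of these cell types in the Hox results was not tested.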

How the data were processed

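Total RNA of tail tissue fibroblasts was labelled with Cy3 by a low-input protocol and hybridised to 1-colour Agilent arrays, 2 per group, per the labels' protocols. The deposited scanner files hold, per the file headers, the processed signal intensity of each spot as made by Feature Extraction (9.5.1.1 per the submitters' processing notes, 12.1.1.1 per those headers). The deposited series value table was matched to quantile-normalized linear signal of the same arrays and was used only as an alternative; its scale and normalization are not stated in the labels. All 6 arrays lay on 1 slide and had 1 scan. Their number limits the precision.

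From these intensities the log2 processed signal minus each array's 75th percentile was computed, spots of a probe were averaged, and each gene took its probe of highest mean. Genes entered the test if any group had them well above background on both its arrays. All 3 groups entered 1 fit with limma 3.58.1 (lmFit and eBayes, R 4.3.3, 3 residual degrees of freedom), with Benjamini-Hochberg adjustment over 23060 genes and a threshold of 0.05. Accessions gave a RefSeq symbol (GRCm38.p6) for 32994 of 56605 probes; headers name mm9, so no probe coordinates are given. Members, lists and tests were chosen with earlier results of these data known. By the rule for named genes, Hox members are given with fold changes for those called, and up to 3 called genes of lowest p per list and comparison are named. Members below background, regulators given with spike-in values, Hoxb5 beside its antisense RNA and cell type markers were named outside it, after their values were seen. Some genes counted in the totals are not reported here by name. The names of the scanner files carry times that differ from the labels, and the labels were followed. The 17 alternatives covered scaling, background correction (normexp with offset 50 on the median signal), filters, probe summary, samples in the fit, a replicate block and leaving out each array; keeping each probe apart, and marker sums without the brightest marker, were added after the data were seen. The fit was tested on simulated data.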

Additional observations from a re-analysis of the deposited data

How the results depend on the processing

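With 2 arrays a group the spread rests on few values, and the control pair is the closest of all pairs; counts were lower where a control array was left out or the pair averaged. Among the called Hox genes that every array of the compared groups detected, and the 3 of lowest p in no.1 minus no.2, 5 values turned sign, all relative to the spike-in controls: Hoxc12 (0.067), Hoxc11 (0.15) and Hoxb13 (0.19) in no.1 minus no.2, Hoxc5 (0.75) in no.1 and Hoxa11 (0.57) in no.2. That scaling gave 18972 genes higher and 422 lower in no.1, with 25 Hox genes higher and 2 lower, and 15083 higher and 534 lower in no.2, with 22 Hox genes higher. Median scaling gave 7564 higher, 3296 lower and 2 Hox genes lower in no.1, and 4840 higher and 2176 lower in no.2. Quantile normalization and the series value table each gave 2 Hox genes lower in no.1. With no filter on dim probes there were 520 genes higher, 7776 lower and 5 Hox genes lower in no.1 minus no.2, 19757 lower and 13 Hox genes lower in no.1, and 13446 lower and 9 Hox genes lower in no.2. With the control arrays averaged there were 2260 higher, 2586 lower and 6 Hox genes higher and 2 lower in no.1, and 577 higher, 669 lower and 3 Hox genes higher in no.2. The causes were not tested. Leaving out each array gave 2270 to 5270 genes higher and 2729 to 6784 lower in no.1, with 5 to 12 Hox genes higher and 2 to 4 lower. In no.2 it gave 598 to 2640 higher and 700 to 4129 lower, with 3 to 13 Hox genes higher and 1 to 2 lower. In no.1 minus no.2 it gave 0 to 2 higher and 0 to 115 lower, the most without no.1 replicate 2, and 0 Hox genes. A replicate block gave 4758 higher and 5814 lower in no.1 with 14 and 4 Hox genes, 2642 and 3414 in no.2 with 12 and 2 Hox genes, and 0 in no.1 minus no.2. Same-numbered arrays correlated at 0.165 (no.1 with no.2), -0.035 (no.1 with control) and -0.017 (no.2 with control), so the numbers do not pair the samples. Over those genes and all alternatives, 390 values kept direction and side of the threshold, 81 lost the call and 5 changed sign. Members outside that set changed sign too, some under other settings (Hoxa9 and Hoxb3 with the mean of probes, Hoxb6 with quantile normalization); Hoxa6, called in no.1, did so relative to the spike-in controls.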
